A study of Mus musculus with 6 samples.

Results

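Immunoglobulin rows were followed in RNA sequenced from sorted CD4+CD25+ T cells, a fraction of T cells that contains many regulatory T cells. They were chosen by symbol: every row named as a heavy, kappa or lambda variable segment (Ighv, Igkv, Iglv), a heavy or kappa joining segment (Ighj, Igkj), a lambda constant gene (Iglc), or as Igkc, Ighm, Igha, Ighe or one of the Ighg genes. That gave 239 of 38924 rows. No measured value entered the choice. The working label for the group was B lineage signal, and whether the reads came from B lineage cells was not tested.

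The study compared cells sorted with (ILT3+) and without (ILT3-) surface ILT3, an inhibitory receptor best known from antigen-presenting cells. Each group has 3 samples. All came from untreated, syngeneic WT mice of both sexes, aged 10 to 16 weeks, and cells of spleen and of mesenteric nodes were enriched for CD25 and CD4 on magnetic columns before sorting. Where 3 values are given for a group, they stand in the order of its samples 1, 2 and 3. No strain is named. How many animals stand behind a sample, and whether they differ between samples, is not stated, and part of the spread that the p-values rest on may therefore be technical. The label check held: Lilrb4, the gene for ILT3, rose from 4.46 ± 1.29 CPM in the ILT3- to 331.7 ± 65.8 CPM in the ILT3+ libraries (SD, n = 3 each, edgeR adjusted p = 0.000327), with 50.9% of its reads uniquely placed. CPM are counts scaled to a common depth with library sizes adjusted by TMM, a method that balances library composition. T cell markers were abundant in every library, with Cd3e at 368.7 to 543.5 exon RPKM, a level per length (exon reads divided by exon length and depth).

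An antibody is built from heavy and light chains. In B cells, enzymes join V, D and J segments of the heavy chain locus, then V and J segments of a kappa or lambda locus, and the joined exon is spliced to a constant exon set. Ighm encodes the mu constant region of IgM, which naive B cells carry on their surface. Switching replaces mu by gamma, alpha or epsilon constant regions (Ighg, Igha, Ighe). Igkc and Iglc2 encode constant regions of the light chains, and a complete antibody needs a light chain. Unjoined heavy chain genes can also be transcribed, in B and in T lineage cells, giving mu constant RNA without a variable segment. Plasma cells secrete antibody, and those of the gut-draining tissues often make IgA, linked by the joining chain Jchain. In a bulk sample, fewer cells of a type and less RNA per cell cannot be told apart.

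The rows lie in 3 loci. On GRCm38, 125 heavy chain rows lie on chromosome 12 (113258768 to 116000461), 110 kappa rows on chromosome 6 (67555636 to 70726757) and 4 lambda rows on chromosome 16 (19085017 to 19260844). All 239 symbols are in GENCODE M21, which uses the same build. The sequences of the heavy J segments are shown because reads over them can be set beside reads of Ighm, which lies downstream on the same strand. They are read from GENCODE, 5′ to 3′ on the minus strand. Capitals mark matches to the motif TGGGGNNNNGGN, which spells the Trp-Gly-X-Gly stretch that heavy J segments share. The search covered both strands, and no match lay on the other strand. Of the first 54 bases of 141647 GENCODE transcripts, 1.68% hold a match on either strand.
Ighj1, chr12:113429781-113429833: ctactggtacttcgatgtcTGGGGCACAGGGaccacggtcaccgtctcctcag
Ighj2 as counted, chr12:113429514-113429567: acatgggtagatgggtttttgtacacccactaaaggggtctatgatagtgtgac
Ighj2 coding segment, chr12:113429468-113429515: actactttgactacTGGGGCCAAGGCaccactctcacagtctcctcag
Ighj3, chr12:113429085-113429132: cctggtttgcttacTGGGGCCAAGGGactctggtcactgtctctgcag
Ighj4, chr12:113428514-113428567: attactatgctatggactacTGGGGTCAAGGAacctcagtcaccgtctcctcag

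The Ighj1, Ighj3 and Ighj4 rows of the deposited tables cover exactly the coding segments and hold 1 match each. The Ighj2 row covers 54 bases that precede the coding segment and overlap it by only 2 bases. It holds no match, so its reads count the flank of this segment more than the segment itself. As background, joining a D segment to this J segment removes the DNA between them, and that flank with it.

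Sequences of the leading V segments are shown because they bear on how securely reads can be assigned to them. The first 300 bases of their second coding exons are printed on the minus strand. Capitals mark bases in no 31-base window, within the printed bases, that another immunoglobulin transcript of GENCODE M21 shares. Windows reaching past the printed bases were not checked, so capitals at the start of each sequence are not shown to be unshared.
Igkv4-59, chr6:69438221-69438520: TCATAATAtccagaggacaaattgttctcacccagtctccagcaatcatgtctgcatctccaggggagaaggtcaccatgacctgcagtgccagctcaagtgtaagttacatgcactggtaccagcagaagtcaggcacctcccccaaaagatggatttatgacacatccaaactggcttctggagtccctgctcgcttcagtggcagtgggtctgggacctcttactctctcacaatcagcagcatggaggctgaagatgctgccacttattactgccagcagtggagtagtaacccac
Ighv1-26, chr12:114788377-114788676: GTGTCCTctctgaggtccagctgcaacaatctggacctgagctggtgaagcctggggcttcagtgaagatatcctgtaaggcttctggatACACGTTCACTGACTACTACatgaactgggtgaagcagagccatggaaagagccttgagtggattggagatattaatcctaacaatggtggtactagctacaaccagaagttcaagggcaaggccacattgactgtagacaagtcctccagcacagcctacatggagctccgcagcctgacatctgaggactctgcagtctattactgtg

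In Igkv4-59, 92.2% of the 270 windows of 31 bases also occur in other segments (31 segments in all), and 8 of 300 bases are in capitals. In Ighv1-26, 70.7% of 270 windows are shared, with 45 other segments, and 27 of 300 bases are in capitals. Of the reads of these rows, 31.5% and 57.8% were uniquely placed, so values under these names are uncertain and can include reads of near copies. By contrast, all reads of Ighm, Igkc and Igha and 98.5% of those of Iglc2 were uniquely placed.

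Immunoglobulin reads were mostly Ighm reads. The 239 rows held 63985 reads in all, of which 57386 (89.7%) fell on Ighm, 2314 on Igkc, 1692 on kappa V, 938 on heavy V, 741 on other heavy constant genes, 342 on Iglc2, 287 on lambda V, 282 on heavy J and 3 on kappa J rows. The rows took 0.0358% to 0.0922% of all reads in ILT3- libraries and 0.1% to 0.186% in ILT3+ libraries. No read fell on 99 rows, 63 rows had 1 to 3 reads in all, and 37 rows had 10 or more. Reads were found in both groups for 55 rows, only in ILT3+ libraries for 65 and only in ILT3- libraries for 20. The same shares over all 38924 rows were not computed, so nothing is read from these counts. The IgD constant gene was not analysed here, and the 20 rows of heavy D segments, outside the choice, had 0 reads.

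Of the 239 rows, 11 passed the filter on low counts and were tested. None of them was called at an adjusted p of 0.05 by edgeR with group as the only term, where 2.31% of the 13694 genes were called in either direction and 1.96% as higher in ILT3+ cells. At an unadjusted p under 0.05 there were 4 of the 11, against 13.8% of all tested genes. DESeq2 called 4, Igha, Igkc, Iglc2 and Igkv4-59, all higher in ILT3+ cells, against 5.18% of its genes called higher. By limma voom 0 were called, against 2.4% in either direction. In an alternative fit same-numbered samples were treated as pairs, on the data and not on the labels. Under that block 2 were called higher, Ighm and Igha, against 4.18% of genes. Among the 11, 10 had a positive log2 fold change (48.0% of all tested genes had), but rows such as Igha reached the test through their ILT3+ reads alone, so this count supports nothing about the group. The same limit holds for overlap: no ILT3- value reached into the ILT3+ range in Igkc, Iglc2 and Igha (11.4% of all tested genes were higher in this way and 8.76% lower), and nothing is read from that count.

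Ighm, on chromosome 12 (113418950 to 113422730, minus strand, 6 exons), was among the more abundant genes of every library. It had 8158, 5344 and 4623 reads in the ILT3- libraries, or 980.1, 419.9 and 335.9 CPM. In the ILT3+ libraries it had 17880, 11179 and 10202 reads, or 1677.4, 899 and 813.9 CPM. ILT3- sample 1 thus lay above ILT3+ samples 2 and 3, and the groups overlapped. Ordered by reads, Ighm was the 126th, 326th and 451st gene in the ILT3- libraries and the 41st, 77th and 91st in the ILT3+ libraries. Mean levels were 578.6 ± 350.2 CPM and 1130.1 ± 475.9 CPM (SD, n = 3 each), a difference that did not pass the threshold over the spread between samples (log2 fold change 0.97, SE 0.45, adjusted p = 0.407, edgeR).

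Within each sample number Ighm was higher in the ILT3+ library, by 1.71-fold, 2.14-fold and 2.42-fold for numbers 1, 2 and 3. With the number as a block, edgeR gave 1.05 on the log2 scale (SE 0.12, adjusted p = 0.00746). The pair numbered 1 stood apart in Ighm, with the highest level of each group. Leaving out both of its libraries, a setting added after seeing the data, gave 1.21 on the log2 scale (SE 0.17, edgeR adjusted p = 0.00909). In that setting 9 immunoglobulin rows were tested and 4.48% of genes were called higher. Besides Ighm, Iglv1 passed, but the setting removes the library with 58 of its 61 ILT3- reads, so nothing is read from its call. Macrophage markers were also highest in ILT3+ sample 1, where Csf1r had 2833 reads against 28 and 5 in ILT3+ samples 2 and 3. Their part in the Ighm level was not tested.

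Ighm reads looked alike in structure in all 6 libraries. Intronic reads made up 3.88% to 5.95% of its reads. Reads across exon junctions numbered 907, 599 and 553 in the ILT3- and 2033, 1288 and 1150 in the ILT3+ libraries, or 11.8% to 12.6% of its exon reads. Most Ighm reads were thus exonic in both groups, and part of them spanned spliced exons. Per length, Ighm stood at 555.4, 267.9 and 216.7 exon RPKM in the ILT3- libraries and at 1059.3, 609.2 and 547.2 in the ILT3+ libraries. On the same scale Cd4 stood at 98.8 to 127.5 in ILT3- and 119.7 to 209.3 in ILT3+ libraries, and Foxp3 at 154.8 to 245.6 over all 6. The Ighm level per length was above that of Cd4 and Foxp3 in every library. Cd3e, at 516.4, 368.7 and 540.3 exon RPKM in the ILT3- and 543.5, 383.7 and 428.1 in the ILT3+ libraries, was above Ighm in ILT3- samples 2 and 3 and below it in the others.

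**Figure D1:**
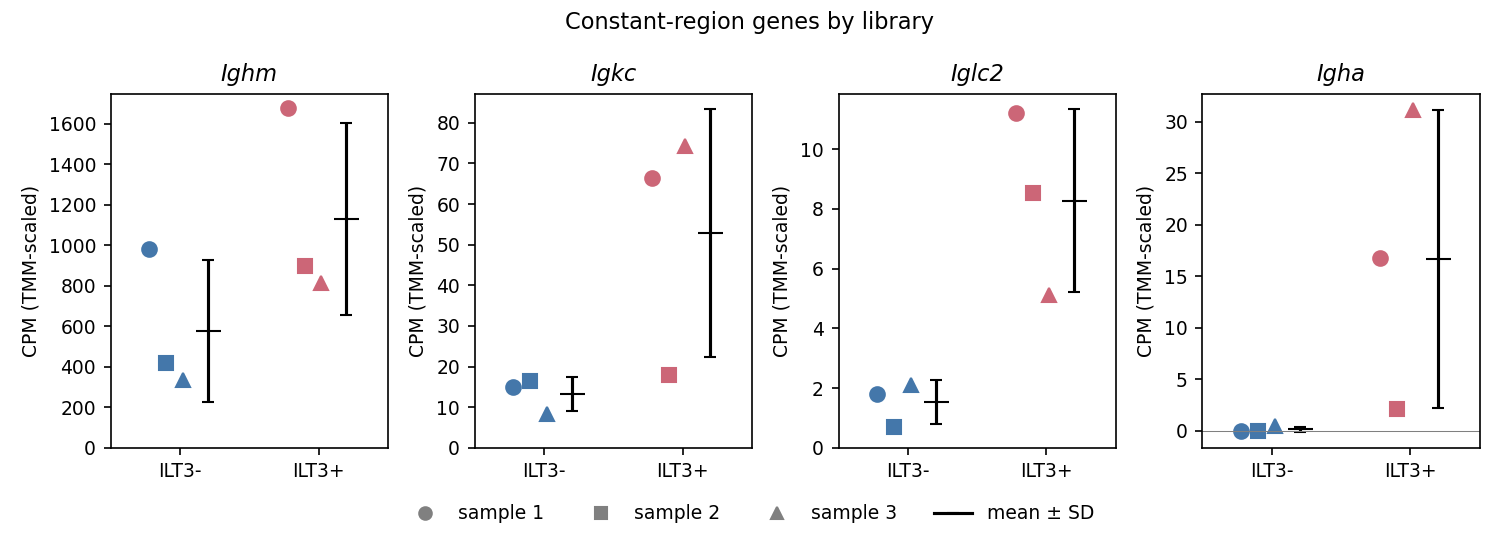
CPM of the constant-region genes Ighm, Igkc, Iglc2 and Igha in each library (y axes, linear, different ranges), by group (x axes), with symbols for the sample number and bars for mean ± SD of 3 libraries. The groups overlap in Ighm, and ILT3+ sample 2 lies at 18.0 CPM in Igkc and 2.09 CPM in Igha, well below ILT3+ samples 1 and 3.

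Light chain constant reads were few beside Ighm reads. Igkc, on chromosome 6 (70726435 to 70726757, 1 exon), had 125, 209 and 116 reads in the ILT3- libraries and 708, 224 and 932 reads in the ILT3+ libraries. In CPM these were 15, 16.4 and 8.43 against 66.4, 18.0 and 74.4. The groups did not overlap, but ILT3+ sample 2 lay just above the highest ILT3- library. Group means were 13.3 ± 4.27 and 52.9 ± 30.5 CPM (SD, n = 3 each). The adjusted p was 0.125 by edgeR (log2 fold change 1.99, SE 0.54) and 0.00447 by DESeq2.

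Iglc2, the only lambda constant row, lies on chromosome 16 (19198401 to 19200351, minus strand). No other lambda constant gene has a row, so light chain constant values here are those of Igkc and Iglc2 alone. It had 15, 9 and 29 reads in the ILT3- libraries and 119, 106 and 64 in the ILT3+ libraries. Levels were 1.54 ± 0.736 CPM and 8.26 ± 3.04 CPM (SD, n = 3 each). Adjusted p-values were 0.109 by edgeR (log2 fold change 2.42, SE 0.62) and 0.00367 by DESeq2. Unlike Igkc, it was well above the ILT3- libraries in ILT3+ sample 2 too. Iglc2 made up 10.7%, 4.13% and 20.0% of light chain constant reads in the ILT3- libraries and 14.4%, 32.1% and 6.43% in the ILT3+ libraries, with no order between the groups.

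For every 100 Ighm reads there were 1.72, 4.08 and 3.14 light chain constant reads in the ILT3- libraries and 4.63, 2.95 and 9.76 in the ILT3+ libraries. The means, 2.98 ± 1.19 and 5.78 ± 3.55 (SD, n = 3), overlapped in their libraries. The ILT3+ mean rested on sample 3, and was 3.79 without it. Corrected for exon length, Igkc and Iglc2 together reached 7.94%, 19.6% and 13.8% of the Ighm level in the ILT3- libraries and 20.9%, 12% and 45.7% in the ILT3+ libraries. This joint level of Igkc and Iglc2 stayed below the Ighm level in every library.

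The other heavy chain constant genes held few reads, most of them from Igha. Igha encodes the alpha constant region of IgA and lies on chromosome 12 (113258768 to 113260236, minus strand). It had 0, 0 and 6 reads in the ILT3- libraries and 179, 26 and 390 in the ILT3+ libraries. In CPM these were 16.8, 2.09 and 31.1 in the ILT3+ libraries and 0.436 in ILT3- sample 3, where a count of 0 allows up to 0.36 CPM in ILT3- sample 1 and 0.236 CPM in ILT3- sample 2. Over the groups that is 595 against 6 reads, a ratio of 102.1 at equal depth (exact binomial 95% counting interval 46.6 to 279.2). In edgeR the difference was 6.59 on the log2 scale (SE 1.41, adjusted p = 0.0616), with the block 6.85 (SE 0.79, adjusted p = 0.0075). DESeq2 gave an adjusted p of 8.91e-07. Igha passed the filter on low counts through its ILT3+ reads alone, so nothing about the group of rows is read from these p-values. Without 1 library the edgeR value ranged from 5.8 to 10.57, the highest without ILT3- sample 3, when no ILT3- read is left and the fitted value is no bound. The ratio of reads was 65.9 without ILT3- sample 2, 53.7 without ILT3+ sample 3 and at least 125.9 without ILT3- sample 3. Without the filter on low counts Igha was the 1 called row of 140, against 1.37% of genes called higher (edgeR, adjusted p = 0.0496). Junction reads of Igha numbered 64 in all.

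The gamma genes, of the IgG classes, showed no shared direction. Ighg3 had 33, 0 and 0 reads in the ILT3- libraries and 19, 11 and 4 in the ILT3+ libraries (log2 fold change -0.36, SE 1.65, adjusted p = 0.96, edgeR). Its sign turned without ILT3- sample 1, the one ILT3- library with reads, to a log2 fold change of 6.63. Ighg2c had 5, 1 and 1 reads against 2, 29 and 6 reads, and Ighg2b 0, 0 and 0 against 0, 5 and 24. Taking 3 reads over all ILT3- libraries as the floor, Ighg2b was at least 9.95-fold higher in the ILT3+ group, but at least 2.62-fold without ILT3+ sample 3, which held 24 of its 29 reads. For removal of ILT3- samples 2 and 3 the bounds were 6.42 and 6.14. Ighg1 and Ighe, the constant gene of IgE, had 0 reads in all libraries, which allows up to 0.218 to 0.36 CPM per library. Floors and intervals stand for counting error alone, as no molecular identifiers are named in the labels. Over all heavy constant reads, Ighm held 96.0% to 100% per library.

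Kappa V reads were high in the same libraries as Igkc. Their sums were 75, 198 and 72 reads in the ILT3- libraries and 571, 124 and 652 in the ILT3+ libraries, so ILT3+ sample 2 lay below ILT3- sample 2. Per 100 Igkc reads there were 60.0, 94.7 and 62.1 kappa V reads in the ILT3- and 80.6, 55.4 and 70.0 in the ILT3+ libraries. Igkv4-59 led in all 6 libraries, with 35, 81 and 35 reads in the ILT3- libraries and 249, 39 and 491 in the ILT3+ libraries. Its share of kappa V reads was 40.9% to 48.6% in the ILT3- libraries and 43.6%, 31.5% and 75.3% in the ILT3+ libraries. Its adjusted p was 0.258 by edgeR (log2 fold change 2.32, SE 0.83) and 0.0384 by DESeq2.

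The next 3 kappa V rows by reads each had most of their reads in 1 library. Igkv1-135 had 16, 52 and 0 reads in the ILT3- libraries and 223, 6 and 1 in the ILT3+ libraries (log2 fold change 1.83, SE 1.84, adjusted p = 0.766, edgeR), and without ILT3+ sample 1 its sign turned, to -2.79. Igkv3-12 had 72 of its 90 reads in ILT3+ sample 3. Igkv8-24 had 30 of its 35 reads in ILT3- sample 2. The 5 kappa J rows held 3 reads in all, each from an ILT3+ library.

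Heavy V reads were fewer than kappa V reads in 5 of 6 libraries, the exception being ILT3- sample 1, with 98 against 75. They summed to 98, 65 and 24 in the ILT3- libraries and to 339, 72 and 340 in the ILT3+ libraries, or 0.519 to 1.22 per 100 Ighm reads in ILT3- and 1.90, 0.644 and 3.33 in the ILT3+ libraries. Ighv1-26 held 46, 33 and 12 of them in the ILT3- libraries and 148, 9 and 285 in the ILT3+ libraries (log2 fold change 2.07, SE 1.11, adjusted p = 0.487, edgeR). In ILT3+ sample 3 it made up 83.8% of heavy V reads, and in ILT3+ sample 2 the leading row was Ighv1-18, with 11 reads or 15.3%. Ighv5-9-1 had 55, 2 and 3 reads in the ILT3+ libraries and 0 in each ILT3- library. Against the same floor it was at least 20.6-fold higher in the ILT3+ group. That bound rested on ILT3+ sample 1 and was 2.49 without it (13.3 and 12.7 without ILT3- samples 2 and 3). Ighv3-8 had 35 reads in ILT3+ sample 1 and 8 in ILT3- sample 2, and Ighv6-3 had 13 reads in ILT3- sample 1 and 26 in ILT3+ sample 1. Igkv4-59 and Ighv1-26 together held 74.4% of all V reads in ILT3+ sample 3 and 17.1% in ILT3+ sample 2.

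**Figure D2:**
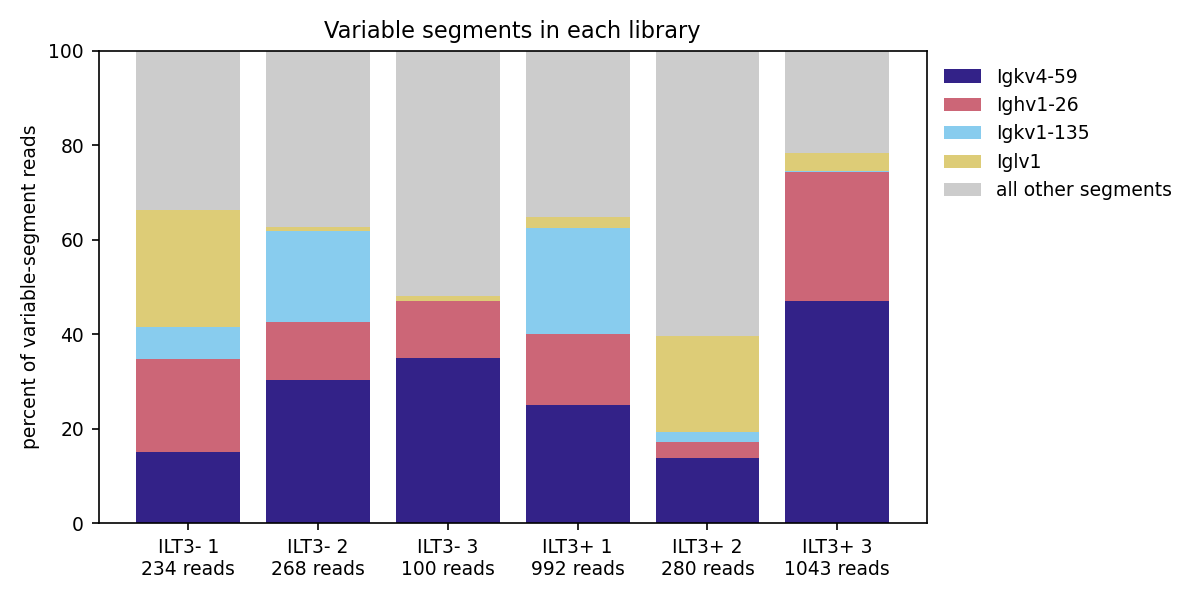
Share of V segment reads (y axis, percent) held by Igkv4-59, Ighv1-26, Igkv1-135, Iglv1 and all other V segments in each library (x axis, with its number of V reads). Igkv4-59 and Ighv1-26 hold 74.4% in ILT3+ sample 3, and all other segments hold 60.4% in ILT3+ sample 2.

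Lambda V reads came from 3 rows. Iglv1 had 58, 2 and 1 reads in the ILT3- libraries and 22, 57 and 40 in the ILT3+ libraries, so ILT3- sample 1 held the most reads of any library (log2 fold change 0.49, SE 1.37, adjusted p = 0.928, edgeR). Without both samples numbered 1 the ILT3- libraries keep 2 and 1 reads, and the fitted value of 5.01 (adjusted p = 0.0187, edgeR) follows from that removal. Iglv2 had 3, 3 and 2 reads against 27, 27 and 9, a ratio of 8.11 at equal depth (exact binomial 95% counting interval 3.87 to 19.6). Iglv3 had 0, 0 and 1 reads against 33, 0 and 2, a ratio of 36.0 (exact binomial 95% counting interval 6.05 to 1463). That ratio rested on ILT3+ sample 1 and was 2.99 without it, with an interval of 0.156 to 176.3. Without ILT3- sample 3, which held the only ILT3- read, it was at least 7.41, without ILT3- sample 2 it was 23.2, and it was 54.8 and 51.9 with samples 2 and 3 of the ILT3+ group left out in turn.

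More V rows had reads in ILT3+ than in ILT3- libraries. Of 221 V rows, 27, 31 and 34 had at least 1 read in the ILT3- libraries and 61, 57 and 64 in the ILT3+ libraries. ILT3+ sample 2 was among the high libraries in this count, although its 280 V reads were close to the 268 of ILT3- sample 2. V reads numbered 234, 268 and 100 in the ILT3- and 992, 280 and 1043 in the ILT3+ libraries. Total reads were 9334370 to 13648274 in ILT3- and 10768217 to 11960289 in ILT3+ libraries. The part of V reads and of depth in this row count was not tested. Reads can be shared between near copies, so a row with a read is not a count of segments used. The same count over all genes was not made, so nothing is read from the difference between the groups.

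Heavy J reads were counted for all 4 rows of the printed segments. None of these rows has an annotated exon, and the tables list their reads as intronic. Ighj1 had 18, 9 and 7 reads in the ILT3- libraries and 64, 42 and 25 in the ILT3+ libraries (log2 fold change 1.77, SE 0.77, adjusted p = 0.368, edgeR). Within each number it was higher in the ILT3+ library, by 2.78-fold, 4.78-fold and 3.92-fold. Ighj4 had 11, 2 and 1 reads against 20, 15 and 11 (log2 fold change 1.43, SE 1.03, adjusted p = 0.642, edgeR). Ighj3 had 3, 0 and 1 reads against 5, 3 and 11, and Ighj2, counted over its flank, 2, 0 and 3 against 18, 4 and 7. All 282 heavy J reads were uniquely placed. Summed heavy J levels were 4.08, 0.864 and 0.872 CPM in the ILT3- libraries and 10.0, 5.15 and 4.31 CPM in the ILT3+ libraries, with no overlap, ILT3- sample 1 lying just below ILT3+ sample 3.

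The classes differed in how even their change was across the sample numbers. Summed CPM of all rows other than Ighm was 53.6, 39.1 and 19.2 in the ILT3- libraries and 199.4, 60.1 and 200.9 in the ILT3+ libraries, ratios of 3.72, 1.54 and 10.5 within numbers 1, 2 and 3. The Ighm ratios spanned 1.71 to 2.42 and the heavy J ratios 2.46 to 5.96. Kappa V ratios were 5.95, 0.641 and 9.94, Igkc ratios 4.42, 1.1 and 8.82, and Iglc2 ratios 6.19, 12.1 and 2.42. Number 2 was thus the lowest of the 3 for Igkc, kappa V and heavy V, and the highest for heavy J, Iglc2 and lambda V. These ratios are descriptions, without a test of the difference between classes.

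**Figure D3:**
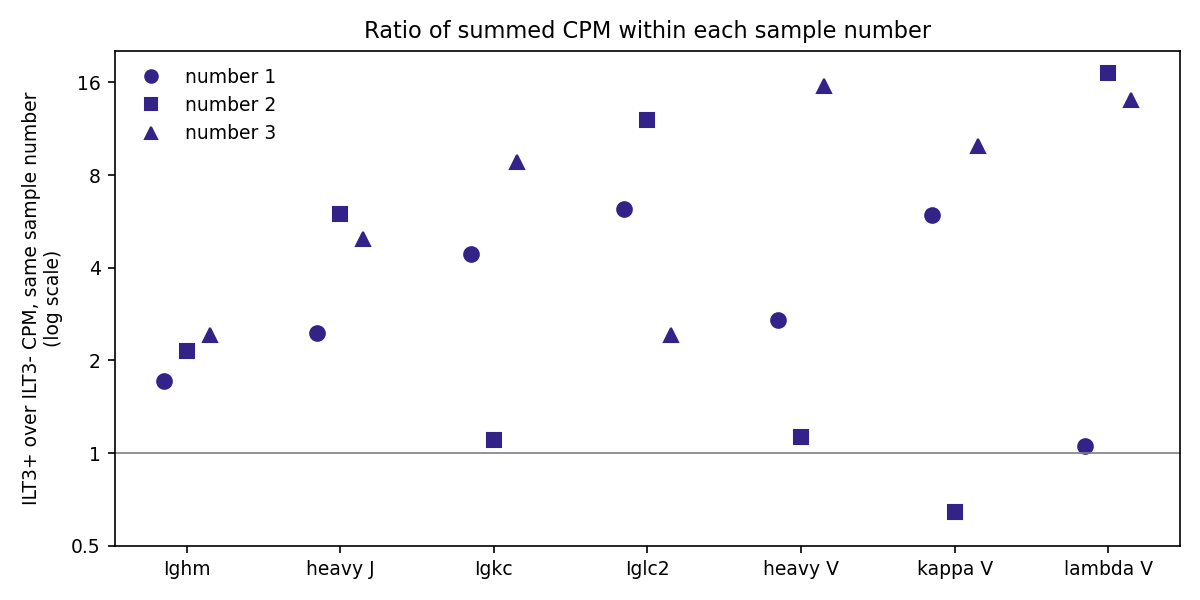
Ratio of summed CPM in the ILT3+ library to that in the ILT3- library of the same number (y axis, log scale), for 7 immunoglobulin classes (x axis), with symbols for numbers 1, 2 and 3 and a line at equality. Ighm lies between 1.71 and 2.42, while kappa V runs from 0.641 to 9.94.

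Markers of plasma cells and B cells were set beside these values. Jchain, whose protein links IgA and IgM into polymers, is listed under its older name Igj. It had 34, 59 and 10 reads in the ILT3- libraries and 275, 31 and 217 in the ILT3+ libraries (log2 fold change 2.27, SE 0.94, adjusted p = 0.339, edgeR). It was high in the same 2 libraries, ILT3+ samples 1 and 3, as Igkc, Igha, Igkv4-59 and Ighv1-26, and low in ILT3+ sample 2. The plasma cell receptor gene Tnfrsf17 had 3, 1 and 0 reads against 0, 0 and 1. Mzb1, a chaperone of antibody-secreting cells, had 11, 9 and 0 against 2, 12 and 20. Sdc1, the plasma cell surface proteoglycan CD138, had 19, 27 and 47 reads against 153, 94 and 41, with ILT3+ sample 2 above all ILT3- libraries, unlike Jchain (log2 fold change 1.68, SE 0.64, adjusted p = 0.29, edgeR). Ell2, a transcription elongation factor that favours the secretory form of antibody mRNA, had 75, 131 and 87 reads against 190, 350 and 405, without overlap in CPM. Its adjusted p was 0.0744 by edgeR (log2 fold change 1.61, SE 0.37) and 0.00102 by DESeq2. Of 18 plasma cell and secretion genes 15 were tested, with a median log2 fold change of 0.48 against -0.02 over all genes tested. Of these 2 were called higher, none lower, against 1.96% of all tested genes called higher. They were Prdm1, the gene of the transcription factor Blimp-1 that effector T cells also express (log2 fold change 3.64, adjusted p = 0.000435, edgeR), and Sec11c, a signal peptidase subunit (0.85, adjusted p = 0.0449, edgeR). Prdm1 was at 8.77, 7.31 and 7.34 CPM in the ILT3- libraries and at 103.0, 87.9 and 100.1 CPM in the ILT3+ libraries, without the low sample 2 seen for Jchain. Sec11c was called in the fit on all 6 libraries and lost its call on exon reads and without any 1 of the libraries.

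B cell markers differed in how their reads fell. Ms4a1, the gene of CD20, had 0, 0 and 7 against 39, 3 and 15 reads, too few for a test. Cd79a and Cd79b, whose products carry the signal of the B cell receptor, had log2 fold changes of 0.28 and 0.77 (adjusted p = 0.884 and 0.592). Cd79b had 193, 158 and 151 reads in the ILT3- libraries. Of the 23 B cell genes 21 were matched and 17 were tested, with a median log2 fold change of 0.92. Among them 1 was higher, none lower, against 1.96% of all tested genes called higher. The called gene was Mef2c, a transcription factor (4.23, adjusted p = 0.017, edgeR). Its call was lost on exon reads, and also without either sample numbered 2 or without sample 3 of the ILT3+ group. Summed levels of the B cell list were 628.8, 282.9 and 264.8 CPM in the ILT3- libraries and 703.9, 409.1 and 355.8 CPM in the ILT3+ libraries. In both groups the sample numbered 1 was highest, as for Ighm. The part of such cells in the immunoglobulin values was not tested.

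**Figure D4:**
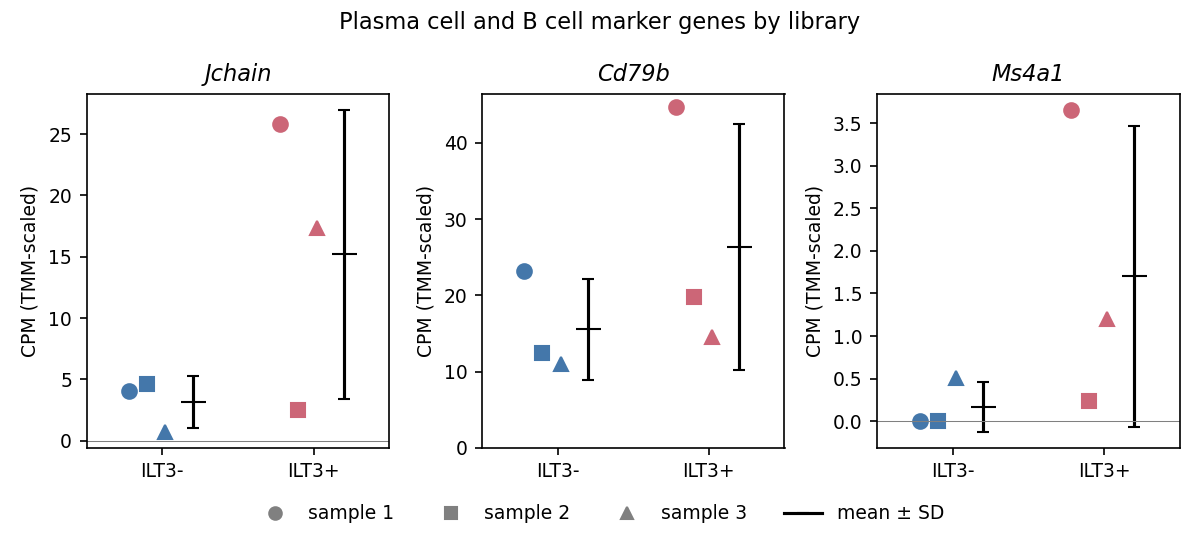
CPM of Jchain, Cd79b and Ms4a1 in each library (y axes, linear, different ranges), by group (x axes), with symbols for the sample number and bars for mean ± SD of 3 libraries. For Jchain, ILT3+ samples 1 and 3 lie at 25.8 and 17.3 CPM, and ILT3+ sample 2 lies at 2.49 CPM.

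Genes that act with immunoglobulin chains were looked at by role. Of 12 partners of the pre-B and B cell receptors 9 were tested (median log2 fold change 1.05). Among them 2 were higher, none lower, against 1.96% of all tested genes called higher. These were Lyn, a Src family kinase (2.55, adjusted p = 0.00663, edgeR), and Cd81, a tetraspanin of many cell types (1.05, adjusted p = 0.0324). The call of Lyn was lost on exon reads, and that of Cd81 without any 1 library other than ILT3- sample 1. The surrogate light chain genes Igll1 and Vpreb1 had 18 and 32 reads in the ILT3- and 34 and 24 in the ILT3+ group. Of 12 genes of recombination and class switching 9 were tested, and edgeR and DESeq2 called 0 of them (0 at an unadjusted p under 0.05 by edgeR, median 0.11). Rag1, a subunit of the V(D)J recombinase, had 0 reads in all libraries, and Rag2, its partner subunit, had 1 read in all. Of 12 Fc receptor and transport genes 6 were tested and 1 was higher, Fcer1g, a signalling adaptor (4.54, adjusted p = 0.000327, edgeR, list median 2.08). The share of all tested genes called higher was 1.96%.

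Markers of further cell types moved with the groups. Of 14 tested dendritic cell genes 8 were higher, none lower (median 3.62), against 1.96% of all tested genes called higher. With the block 10 were higher and 1 lower, against 4.18% and 2.62% of all tested genes. Without both samples numbered 1 the counts were 11 and 1, against 4.48% of genes called higher. The share called lower in that setting was not computed. The lower gene was Ccr7, a chemokine receptor that T cells also carry (-1.30 with the block, adjusted p = 0.0207, edgeR). The list had summed levels of 642.7 to 2345.5 CPM in ILT3- and 2397.1 to 3321.4 CPM in ILT3+ libraries. Against the same 1.96%, 2 of 12 tested macrophage genes were higher, Tyrobp and Fcer1g (median 3.88). Their list had sums of 19.4 to 51.3 CPM in ILT3- and 189.3 to 1349.5 CPM in ILT3+ libraries, the highest in ILT3+ sample 1. Of 5 tested erythroid genes 3 were higher (median 5.43), with sums of 3.93 to 8.43 and 95.7 to 288.2 CPM. Of the dendritic cell list, Cd209a had 0 reads in all libraries and Clec9a 1 read in all. Xcr1 was called only without both samples numbered 1. Itgax, the gene of CD11c, had 49 of its 50 reads in ILT3+ sample 1. Of 14 T cell genes edgeR called 0 and 2 had an unadjusted p under 0.05 (median -0.21). DESeq2 called 1 of them lower, Cd5, against 1.91% of its genes, and the block 2, Cd5 and Cd28, against 2.62%. In these T cell genes the ILT3- and ILT3+ libraries summed to 8869.2 to 10733.7 CPM and 7972.8 to 9138.1 CPM. The part of these cells in the immunoglobulin values was not tested.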

How the data were processed

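RNA of 6 sorted samples was sequenced. Per the labels' protocols, full-length cDNA was amplified from 1 ng of RNA (SmartSeq V2) and made into Nextera XT libraries. Per the submitters' processing notes the build is GRCm38. Aligner, counter, annotation and strand handling: not given in the sources used here. The authors deposited read counts per gene, split by exon, junction and intron, all or uniquely placed, per the file headers. Total gene reads were tested; they equal exon plus intron reads in every row and include reads that also match elsewhere.

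The main test was that of edgeR 4.0.16 (R 4.3.3): TMM, default filter (minimum count 10, total 15), robust quasi-likelihood fit on group alone, Benjamini-Hochberg adjustment over all genes, threshold 0.05. DESeq2 1.42.0, limma 3.58.1, unique or exon reads, other scaling and filters, the replicate block and leaving out libraries were alternatives. The scripts were tested on simulated data. Each SE was computed as log2 fold change over the square root of F. Exon RPKM were computed from deposited exon counts and lengths. Sums over rows carry no test. Depth was 9334370 to 13648274 reads per library, so 3 reads, the floor, are 0.218 to 0.36 CPM.

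Across genes, each sample's deviation from its group was compared between groups. The r was 0.4, 0.26 and 0.271 for numbers 1, 2 and 3, all over 0.1. The numbers were therefore used as a block in an alternative fit, beside the main test on group alone. This pairing rests on the data alone. Unequal numbers also passed 0.1 (0.163 for ILT3- 3 with ILT3+ 2, 0.117 for ILT3- 2 with ILT3+ 3), so the bound does not single out pairs. The block lowered the biological coefficient of variation from 0.427 to 0.318.

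Members, lists and tests were chosen with earlier results of these data known. Named by rule are all constant genes, called rows, the up to 4 rows with most reads per segment class and, of the lists, called genes. The rule also allowed uncalled list genes by p and abundance, which here enter the counts of their lists. Ighv1-18, Csf1r, Rag1, Rag2, Tnfrsf17, Mzb1, Sdc1, Ell2, Ccr7, Jchain, Ms4a1, Cd79a, Cd79b, Igll1, Vpreb1, Cd5, Cd28, Cd209a, Clec9a, Xcr1 and Itgax were named after their values were seen. Fcmr, Jchain and Adgre1 were matched through RefSeq synonyms, and Ebf1 and Cr2 were not matched. Some list genes enter the counts but are not reported here by name.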

Additional observations from a re-analysis of the deposited data

How the results depend on the processing

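Of 168 alternative values for the 11 tested rows, 152 kept direction and call, 9 gained a call and 7 turned. Ighg3 turned to 2.21 by limma voom, 1.54 with the replicate block and 6.63 and 0.06 without ILT3- sample 1 and ILT3+ sample 3 (range without 1 library -1.06 to 6.63). Igkv1-135 ranged from -2.79 to 2.95 and Iglv1 from -0.09 to 4.73, Iglv1 turning to -0.08 and -0.09 without ILT3- samples 2 and 3. Igkv1-135 turned without ILT3+ sample 1. Causes were not tested.

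Over all genes 316 were called on total gene reads, 204 on unique exon reads, 948 by DESeq2, 932 with the replicate block and 786 without both samples numbered 1. Without 1 library the count was 31 to 322, 67 and 31 without ILT3- samples 2 and 3 and 53 and 57 without ILT3+ samples 2 and 3. Called immunoglobulin rows numbered 0, but 1 without the filter, 4 by DESeq2, 2 with the replicate block, 2 without both samples numbered 1 and 0 without any 1 library. The block changed no other call of these rows.

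Called genes of the B cell list numbered 1, but 0 on total exon and on unique exon reads, 2 (with Cxcr5) without both samples numbered 1 and 0 to 2 without 1 library. In the plasma cell list they numbered 2, but 1 on total exon and on unique exon reads, 1 without each library, and 3 (with Ell2) by DESeq2 and without both samples numbered 1. In the T cell list they numbered 0, but 1 by DESeq2, 2 with the replicate block and 1 without both samples numbered 1. Dendritic cell calls numbered 8, and 1 to 9 without 1 library (4, 1, 3 and 4 without ILT3- samples 2 and 3 and ILT3+ samples 2 and 3). Macrophage calls numbered 2, but 1 on unique exon reads and by limma voom, 5 with the replicate block and 1 to 2 without 1 library. Erythroid calls numbered 3, but 5 by DESeq2, with the replicate block and without both samples numbered 1, 1 by limma voom and 0 to 5 without 1 library. Receptor partner calls numbered 2, but 1 on total exon and on unique exon reads and 1 to 2 without 1 library. Fc receptor calls numbered 1, but 2 on total exon reads, on unique exon reads, without the filter and by DESeq2. Of all tested genes, 1.96% were called higher in the main fit, 4.18% with the replicate block and 5.18% by DESeq2. The share was 4.48% without both samples numbered 1 and 1.37% without the filter. For the other settings the share called higher was not computed.

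The ratio of summed immunoglobulin CPM was 2.08, 2.01 to 2.07 over 4 other counts and scalings, and 1.6 to 3.15 without 1 library. That of Ighm was 1.95 and rose to 2.99 without ILT3- sample 1. Depth limits rows of few reads: 103 of 140 rows with reads had under 10.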
